A study of Capra hircus with 21 samples.

Results

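The step from the 16-cell embryo to the morula in the goat (Capra hircus) was followed in 6 of 21 RNA-seq libraries of in vivo oocytes and embryos. They comprise 3 libraries of morulae and 3 of 16-cell embryos, taken as the columns that carry these stage names, with all 19040 genes of the table. The other libraries cover oocytes and the 2-cell, 4-cell, 8-cell and blastocyst stages, 3 each. Labels give each library as total RNA of embryos, lettered A to C, with no breed, age, treatment or number of embryos. Whether a stage's libraries are of different animals is not stated, and p-values measure only the spread between these libraries, which may be technical. For morula A the labels state that one of its paired read files was damaged and left out.

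The morula is the stage at which the loose ball of blastomeres compacts. Cells flatten against each other through adherens junctions built on E-cadherin, outer cells acquire an apical pole, tight junctions begin to seal the surface, and Hippo signalling separates inner from outer cells before the blastocyst cavity opens. In goats, as in sheep and cattle, the main activation of the embryo's own genome comes shortly before, so that messages left by the oocyte are still being removed while the embryo builds its own ribosomes and mitochondrial enzymes.

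Reads in the listed genes numbered 19.7, 8.46 and 22.1 M in morula A, B and C and 17.7, 12.7 and 14.3 M in 16-cell A, B and C. Values are RPKM, reads scaled by library size and by gene span with introns included. Levels of 1 RPKM or more were reached by 2768, 2638 and 3053 genes in morulae, against 2508, 2782 and 2845 genes in 16-cell embryos (2820 ± 212 against 2712 ± 179, SD, n = 3 each, difference 108, exact two-sided permutation p = 0.6, where 0.1 is the smallest possible). Library C of either stage stood apart. Across the genes tested, morula C correlated at 0.915, 0.933 and 0.918 with 16-cell A, B and C but at 0.868 and 0.893 with morula A and B, which correlated at 0.963 with each other. 16-cell C correlated at 0.924 and 0.913 with 16-cell A and B, which correlated at 0.957. Results are therefore given with and without morula C for the counts over all genes, and for many but not all of the lists and genes that this changes.

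In morulae, genes of the ribosome and nuclear genes of the mitochondria were higher, and several messages of the oocyte were lower, than in 16-cell embryos. As each library is RNA of whole embryos, fewer cells of a kind and less RNA per cell cannot be told apart. Of 83 cytosolic ribosomal protein symbols listed, 32 were found. Summed over these 32 genes, the level was 4483, 4030 and 2512 RPKM in morula A, B and C, against 1007, 1107 and 870 RPKM in 16-cell A, B and C. The 43 nuclear genes of the respiratory chain found, of 79 listed, summed to 374, 273 and 199 RPKM in morulae, against 69.1, 90.9 and 91.5 RPKM in 16-cell embryos. For the 26 maternal-effect and oocyte genes found, of 39 listed, the sum was 14.2, 15.1 and 128 RPKM in morulae, against 69.1, 71.0 and 286 RPKM in 16-cell embryos. Stages did not overlap for the ribosomal and respiratory sums. The maternal sum of morula C was above those of 16-cell A and B, and that of 16-cell C was the highest of the 6.

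**Figure D1:**
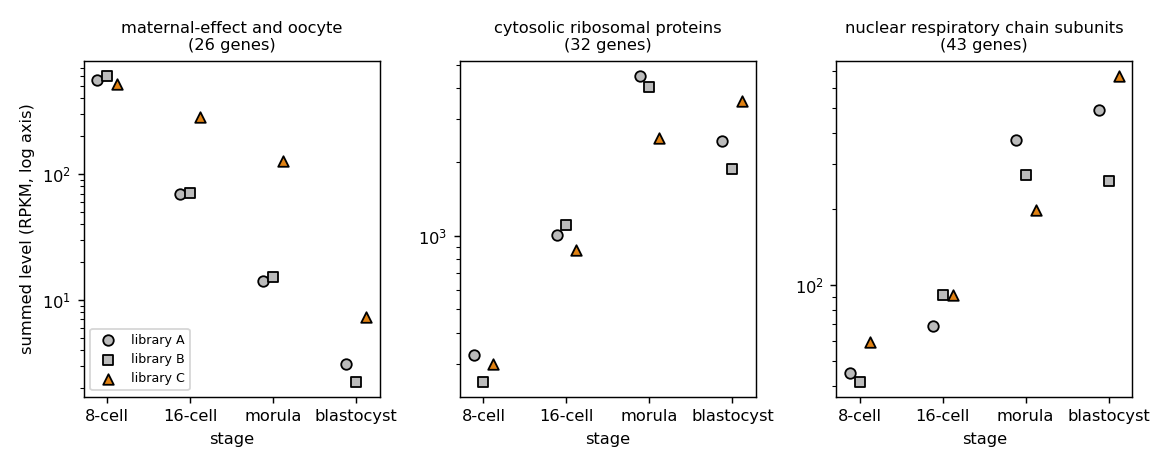
Summed level (RPKM, log axis) of 3 gene lists in each library of the 8-cell, 16-cell, morula and blastocyst stages, 3 libraries a stage, with library C of each stage in orange. Stage means of the maternal sums are lower at each later stage, with 16-cell C (286 RPKM) and morula C (128 RPKM) above their stage mates. Morula C also lies above 16-cell A and B (69.1 and 71.0 RPKM). The ribosomal sums of the 3 morulae (2512 to 4483 RPKM) lie above those of the 16-cell libraries (870 to 1107 RPKM).

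A gene was tested when 3 or more of the 21 libraries had 1 RPKM or more. Of the 4253 such genes, 485 (11.4%) were higher and 198 (4.66%) lower in morulae. A gene was called when its adjusted p was below 0.05 in limma, adjusted over all genes tested, with a log2 fold change of at least 1 in size. The spread was taken from all 21 libraries. With only the 6 libraries of both stages fitted, 166 of the 485 and 19 of the 198 were called. Fold changes are on the scale of log2(RPKM + 1) and understate the change of low genes. The median gene changed by 0.01 log2 units. Leaving out morula C gave 626 higher (14.7%) and 448 lower (10.5%) genes, and without both libraries C 581 higher (13.7%) and 410 lower (9.64%). Of the 448 genes lower without morula C, 325 (72.5%) had a level in morula C at or above that of the lowest 16-cell library. Of the 626 higher genes, 118 (18.9%) had a level in morula C at or below that of the highest 16-cell library. Calls also depended on morula A, without which 307 were higher and 78 lower, and on morula B, without which 111 were lower. The share of calls that were higher was 71.0%, and it was 58.5% with quantile normalization 55.4% on reads scaled by library size alone, and 52.3% with median-ratio scaling, under which the median gene shifted to -0.12. Levels of the 3 morulae lay all above or all below those of the 3 16-cell libraries for 1173 genes (27.6%). Among called genes this held for 448 (92.4%) of the higher and 105 (53.0%) of the lower. The genes named below as largest rises and falls were picked to have no overlap, so their gap between stages was set by that choice.

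**Figure D2:**
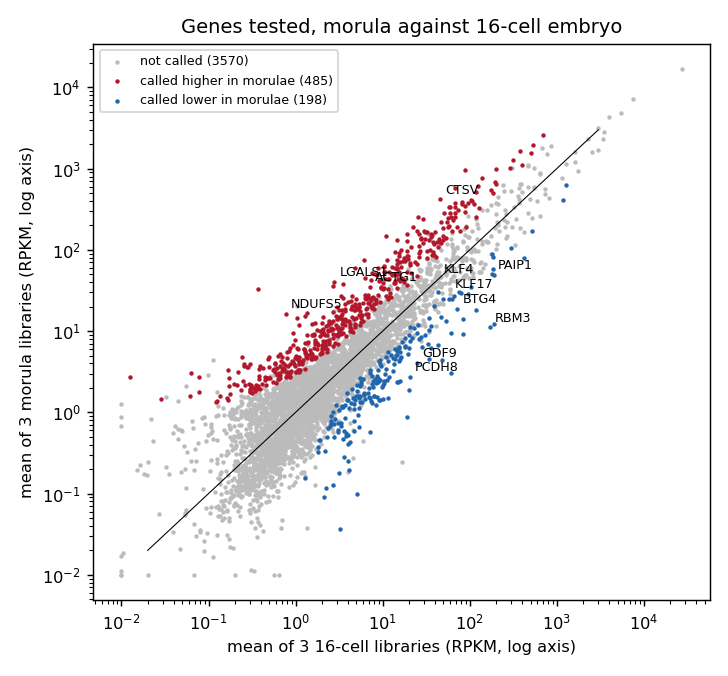
Mean level of the 3 morula libraries (vertical) against the mean of the 3 16-cell libraries (horizontal) for the 4253 genes tested, both in RPKM on log axes, with equal levels on the line. Genes called higher in morulae (485, red) lie above the line and genes called lower (198, blue) below it, and named genes are marked.

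Ribosomal proteins had the largest share of rises among the lists with at least 10 members tested. Of 32 cytosolic ribosomal protein genes tested, 28 rose (87.5% against 11.4% over all genes tested) and 0 fell. Their median log2 fold change was 1.93 against 0.01 over all genes tested. Between 23 and 29 were called with any single library left out, 23 with median-ratio scaling and 19 with quantile normalization. Large-subunit RPL27 had 262, 247 and 67.3 RPKM in morula A, B and C, against 24.6, 20.4 and 22.7 RPKM in 16-cell A, B and C (log2 fold change 2.81, adjusted p = 0.000524). RPL10A had 68.5, 58.5 and 29.8 RPKM, against 5.33, 11.6 and 5.90 RPKM (2.62, adjusted p = 1.65e-05), and was at 0.330 RPKM on average in 8-cell embryos. In both, morula C was the lowest morula. Both were picked as largest rises without overlap, so its place above the 16-cell libraries follows from that choice. RPLP2, of the ribosomal stalk, had 103, 67.0 and 55.5 RPKM in morulae, against 10.5, 14.1 and 9.39 RPKM in 16-cell embryos (2.60, adjusted p = 5.93e-05). Small-subunit RPS9 differed little between libraries of a stage, at 19.5, 18.9 and 18.5 RPKM in morulae, against 3.76, 5.95 and 3.22 RPKM in 16-cell embryos (1.94, adjusted p = 1.79e-05). Not called were RPSA (10.6, 5.63 and 26.3 RPKM, against 10.3, 7.65 and 11.3 RPKM, adjusted p = 0.738), RPS27L, RPS28 and RPS29. Ribosomal protein genes have near-identical copies, so reads may be shared between them and single values are uncertain.

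The share of the other genes of translation that was called was smaller than that of ribosomal proteins. Of 26 initiation and poly(A)-binding genes tested, 5 rose and 1 fell (median 0.23). These were 19.2% and 3.85%, against 11.4% higher and 4.66% lower over all genes tested. PABPC1, the main cytoplasmic poly(A)-binding protein, had 38.7, 26.2 and 12.01 RPKM in morulae, against 2.27, 4.88 and 3.26 RPKM in 16-cell embryos (2.47, adjusted p = 0.00036). EIF2S1, the alpha subunit of eIF2, had 20.7, 21.3 and 12.04 RPKM, against 0.987, 7.27 and 2.04 RPKM (2.33, adjusted p = 0.00225), and EIF3G, a subunit of eIF3, had 43.0, 42.7 and 45.0 RPKM, against 6.77, 17.8 and 7.51 RPKM (2.05, adjusted p = 0.0015). All 3 genes were higher in every morula than in any 16-cell library, which for PABPC1 and EIF2S1 follows from their choice as largest rises. EEF1B2, an elongation factor subunit chosen after its values were seen, rose with an adjusted p of 0.0101, but not without 16-cell A or morula A (up to 0.0765). The member that fell was PAIP1, which binds poly(A)-binding protein. EIF1AX, which encodes initiation factor eIF1A, stood at 25.0, 14.2 and 16.0 RPKM in morulae, against 32.3, 13.1 and 13.9 RPKM in 16-cell embryos (adjusted p = 0.973). Chosen after their values were seen, the elongation factor genes EEF1A1 (235, 248 and 185 RPKM, against 44.2, 62.7 and 33.1 RPKM, adjusted p = 0.000996) and EEF1D (5.61, 5.98 and 5.65 RPKM, against 0.158, 1.76 and 0.596 RPKM, adjusted p = 1.65e-05) and the ribosome-associated scaffold RACK1 (142, 157 and 106 RPKM, against 31.9, 36.6 and 22.6 RPKM, adjusted p = 0.000714) also rose. Morula and 16-cell libraries did not overlap in these genes either.

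Genes that assemble ribosomes in the nucleolus changed less than the ribosomal proteins: 3 of 46 rose and 0 fell, 6.52% against 11.4% over all genes, with a median of 0.26. The count was 2 without 16-cell C, 7 without 16-cell B and 5 without morula A or C, and with median-ratio scaling 1 rose and 1 fell, with a median of 0.02. GNL3, a nucleolar GTP-binding protein, had 29.8, 31.3 and 22.0 RPKM in morulae, against 8.68, 12.2 and 5.85 RPKM in 16-cell embryos (1.57, adjusted p = 0.00923). NOP56, a core protein of the box C/D snoRNP, had 30.6, 26.8 and 23.4 RPKM, against 12.2, 15.3 and 5.53 RPKM (1.31, adjusted p = 0.00889, 0.0529 without 16-cell C and 0.0611 with median-ratio scaling). WDR74 had 2.72, 2.75 and 2.34 RPKM, against 0.308, 1.03 and 0.613 RPKM (1.15, adjusted p = 0.00157), and came below the fold threshold without 16-cell A. Each of the 3 was higher in all morulae than in all 16-cell libraries. Of 10 aminoacyl-tRNA synthetase genes tested, limma called 0, with a median of 0.30 and 4 genes at an unadjusted p below 0.05. Counted in RPM, reads scaled by library size alone, 10384 genes could be tested, of which 980 (9.44%) were higher and 788 (7.59%) lower. In RPM 6 of 18 synthetase genes rose and 0 fell. TARS, the threonine enzyme, had 40.7, 18.6 and 14.6 RPM in morulae, against 1.76, 6.89 and 7.93 in 16-cell embryos (adjusted p = 0.0027).

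Nuclear genes of the respiratory chain rose in 21 of 38 tested (55.3% against 11.4% over all genes tested) and fell in 0. Their median was 1.15, and all 38 fold changes were above 0. The count ran from 15 (without morula A) to 26 (without morula C, where 14.7% of all genes tested were higher). It was 16 with median-ratio scaling and 18 with quantile normalization. NDUFS5, a subunit of complex I, had 26.9, 14.5 and 7.86 RPKM in morulae, against 0.216, 0.770 and 1.33 RPKM in 16-cell embryos (3.19, SE 0.38, adjusted p = 1.74e-05). NDUFB4, also of complex I, had 24.5, 14.04 and 7.05 RPKM, against 0.482, 1.41 and 1.97 RPKM (2.73, adjusted p = 0.000323). ATP5IF1, the inhibitor of ATP synthase, had 20.5, 9.11 and 7.35 RPKM, against 1.196, 0.913 and 2.48 RPKM (2.32, adjusted p = 0.00102). In all of them morula A was highest. They were picked as largest rises without overlap, so the gap between stages follows from that choice.

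The 13 genes encoded in the mitochondrial genome did not follow: limma called 0 of 13 in either direction, and 0 had an unadjusted p below 0.05. Their median was -0.22, and 0.35 without morula C. Reads on the mitochondrial chromosome made up 9.77%, 13.7% and 3.23% of gene reads in morula A, B and C, against 13.2%, 10.6% and 6.87% in 16-cell A, B and C (exact permutation p = 0.7). Library C was lowest in either stage. Mitochondrial ribosomal proteins, which are nuclear genes, rose in 18 of 42 and fell in 1 (median 0.92). These were 42.9% and 2.38%, against 11.4% higher and 4.66% lower over all genes tested. The rises numbered 10 without 16-cell A, without morula A and with median-ratio scaling, 11 with quantile normalization, and 20 without 16-cell B. MRPL35 had 17.5, 10.6 and 9.63 RPKM in morulae, against 1.11, 2.46 and 1.48 RPKM in 16-cell embryos (2.33, adjusted p = 0.0011). MRPL21 had 11.7, 10.2 and 7.18 RPKM, against 1.29, 3.06 and 1.81 RPKM (1.83, adjusted p = 0.00112), and MRPL11 had 15.1, 12 and 10.01 RPKM, against 2.38, 6.43 and 1.44 RPKM (1.74, adjusted p = 0.00209). The exception, MRPL16, was lower, at 6.42, 5.36 and 7.06 RPKM in morulae, against 20.6, 10.2 and 15.7 RPKM in 16-cell embryos (-1.14, adjusted p = 0.00814), a call lost without 16-cell A.

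Among lists of protein breakdown and folding the proteasome stood highest. Proteasome genes rose in 8 of 30 and fell in 0 (26.7% against 11.4%, median 0.69), but only 1 to 4 were called without 16-cell A or C or morula A or B, and 4 with either scaling. The 19S ATPase PSMC5 had 10.3, 10.8 and 5.51 RPKM in morulae, against 0.369, 2.95 and 0.739 RPKM in 16-cell embryos (2.18, adjusted p = 0.000382), and was called without any 1 of the 6 libraries. PSMB3 (adjusted p = 0.0205) and PSMC2 (adjusted p = 0.03) rose too, with values up to 0.0689 and 0.107 when a library was left out (16-cell C, morula A or morula B, and for PSMC2 also 16-cell A). Among 25 heat shock and chaperone genes 3 rose and 0 fell, near the share over all genes tested (12% against 11.4%), with a median of -0.10, and 1 rose with either scaling. Without morula C 2 rose and 2 fell. HSPE1, the mitochondrial co-chaperonin, had 142, 83.6 and 51.5 RPKM in morulae, against 16.9, 17.5 and 43.8 RPKM in 16-cell embryos (1.81, adjusted p = 0.0117), a call lost without 16-cell A or morula A (up to 0.0826). TCP1 and CCT7, of the cytosolic chaperonin, rose by 1.25 and 1.001 with adjusted p of 0.0241 and 0.0298. Both calls were lost without 16-cell A or morula B, that of TCP1 also without 16-cell C or morula A (up to 0.105) and that of CCT7 without morula C (up to 0.156). CTSV (chromosome 8, 83339505 to 83347809, in the coordinates of the table, whose build is not given in the sources used here), a lysosomal cathepsin, rose to 481, 594 and 181 RPKM in morulae, against 44.7, 60.5 and 30.6 RPKM in 16-cell embryos (3.06, SE 0.77, adjusted p = 0.00741). It averaged 0.660 RPKM in 8-cell embryos and 88.2 RPKM in blastocysts, so its mean was highest in morulae among these 4 stages. It was the 1 called gene of 11 on the autophagy and lysosome list (9.09% against 11.4% over all genes tested).

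Antioxidant genes rose in 2 of 14, a share near that over all genes tested (14.3% against 11.4%). FTH1, the heavy chain of the iron store ferritin, had 1084, 404 and 361 RPKM in morulae, against 108, 168 and 102 RPKM in 16-cell embryos (2.13, adjusted p = 0.00287). PRDX5, a peroxiredoxin, had 23.9, 19.8 and 18.2 RPKM, against 2.28, 7.48 and 3.50 RPKM (2.10, adjusted p = 0.00303). Both were higher in each morula than in any 16-cell library and held without any 1 of the 6 libraries. FTH1 has near-identical copies, which may share its reads.

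LGALS1 (chromosome 5, 108434880 to 108438003), which encodes the carbohydrate-binding galectin-1, rose too. It had 66.4, 42.5 and 12.6 RPKM in morulae, against 2.34, 4.12 and 1.81 RPKM in 16-cell embryos (3.23, SE 0.43, adjusted p = 5.54e-05), after 0.319 RPKM in 8-cell embryos and before 194 RPKM in blastocysts. Its mean was higher at each later stage from the 8-cell embryo on. ACTG1, cytoplasmic gamma-actin, had 56.5, 33.0 and 15.7 RPKM in morulae, against 5.75, 7.96 and 7.71 RPKM in 16-cell embryos (1.98, adjusted p = 0.000974). The tubulin genes TUBA1B (87.9, 68.2 and 82.6 RPKM, against 19.5, 20.1 and 12.8 RPKM, adjusted p = 0.000694) and TUBB (5.32, 7.04 and 3.14 RPKM, against 0.304, 0.706 and 0.961 RPKM, adjusted p = 6.82e-05), chosen after their values were seen, rose as well, whereas TUBA4A, another alpha-tubulin, fell. Actins and tubulins share long stretches of sequence, and the counting of reads that match several genes is not given in the sources used here.

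**Figure D3:**
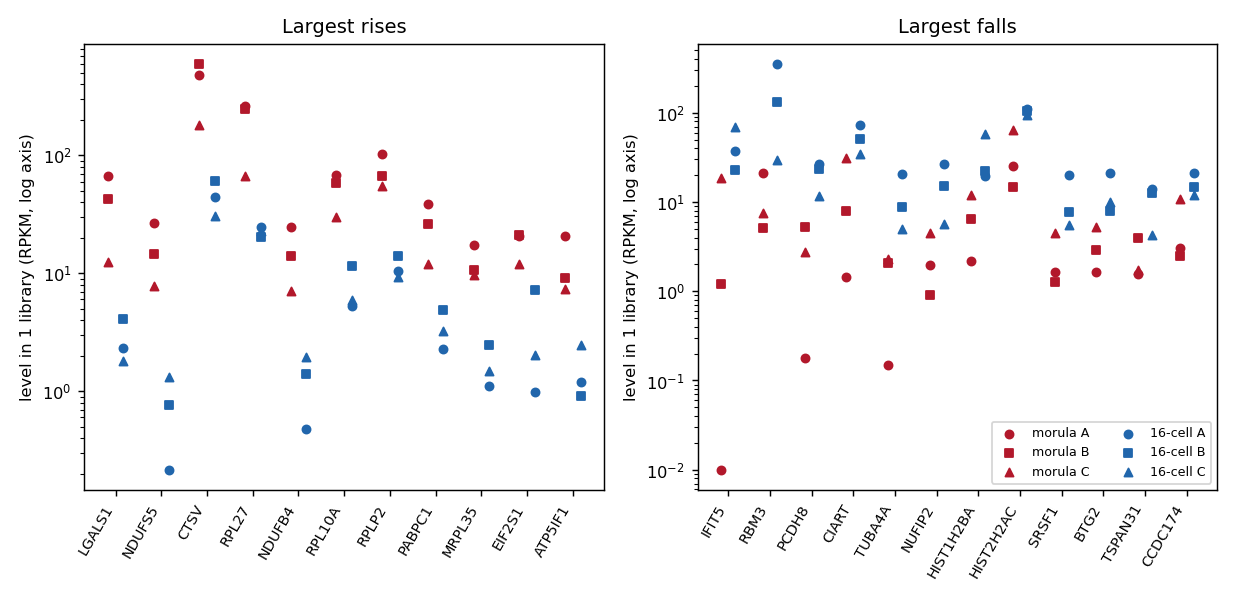
Level (RPKM, log axis) in each library of the named genes among the largest rises (left) and largest falls (right) of called genes with a symbol, at least 10 RPKM in the higher stage and no overlap between stages; morula libraries (red) stand left of 16-cell libraries (blue), and circle, square and triangle mark libraries A, B and C. The gap between the stages follows from this choice of genes. In the rises morula C is usually the lowest morula, while in several falls morula C (IFIT5 at 18.8 RPKM, CIART at 31.1 RPKM) comes close to the 16-cell values. IFIT5 had no read in morula A and is drawn at the table's offset of 0.01 RPKM.

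Messages of the oocyte were among those that fell. Of 18 maternal-effect and oocyte genes tested, 5 fell and 0 rose (27.8% against 4.66%, median -0.86). Without morula C 10 fell, with median-ratio scaling 8, and without 16-cell C, morula A or morula B 0 fell. GDF9, an oocyte-secreted growth factor, had 0.541, 0.647 and 11.1 RPKM in morulae, against 7.05, 9.71 and 57.6 RPKM in 16-cell embryos (-2.46, SE 0.65, adjusted p = 0.00977, and 0.000107 without morula C). Its partner BMP15 had 0.529, 2.43 and 20.9 RPKM, against 16.1, 15.7 and 46.0 RPKM (-2.29, adjusted p = 0.0112, and 1.68e-05 without morula C). MOS, the kinase that holds the egg in meiosis, had 0.219, 0.376 and 12.5 RPKM, against 6.94, 7.26 and 13.8 RPKM (-1.81, adjusted p = 0.041, and 3.68e-05 without morula C). In all 3 genes morula A and B lay far below every 16-cell library while morula C lay within their range. With only the 6 libraries of both stages fitted, adjusted p was 0.162 for GDF9 and BMP15 and 0.232 for MOS. The egg-coat genes ZP4 (-1.48, adjusted p = 0.0248) and ZP2 (-1.58, adjusted p = 0.0312) fell too, with ZP4 in morula C just below every 16-cell library and ZP2 within their range. Their calls, like those of GDF9, BMP15 and MOS, were lost without 16-cell C, morula A or morula B (adjusted p up to 0.249), and that of MOS also without 16-cell A or B. OOEP, of the subcortical maternal complex, had 2.22, 1.42 and 25.4 RPKM, against 13.9, 8.78 and 80.3 RPKM (-1.95), and H1FOO, the oocyte linker histone, had 0.207, 0.410 and 8.33 RPKM, against 2.79, 2.97 and 15.3 RPKM (-1.32). Neither was called (adjusted p = 0.0713 and 0.118), but both passed without morula C (0.00164 and 0.00109) and with median-ratio scaling (0.0253 and 0.0469), and OOEP also with quantile normalization (0.0319).

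Among called genes with a symbol in the highest decile by mean level, PAIP1 (chromosome 20, 31241299 to 31270352) showed the steepest fall. It had 2.66, 1.64 and 145 RPKM in morulae, against 186, 84.4 and 270 RPKM in 16-cell embryos (-3.86, SE 0.92, adjusted p = 0.00512). Without morula C the fold change was -5.71 with an adjusted p of 4.53e-08. With only the 6 libraries of both stages fitted, the adjusted p was 0.132. BTG4 (chromosome 15, 60577010 to 60592524), the adaptor that brings the CCR4-NOT deadenylase to maternal messages, had 1.65, 2.998 and 52.3 RPKM, against 49.4, 37.5 and 130 RPKM (-2.94, adjusted p = 0.00685, and 0.0611 without morula A). It was the 1 member called of 20 on the list of maternal mRNA clearance, on which 16 fold changes were below 0. That share, 5%, is near the 4.66% lower over all genes tested. The morula C value exceeded 1 or more 16-cell libraries in both genes. TRIM59 (0.877, 0.907 and 58.6 RPKM, against 31.7, 19.7 and 66.2 RPKM) and USP44, a deubiquitinase (0.238, 0.619 and 5.99 RPKM, against 9.95, 5.65 and 15.5 RPKM), were chosen after their values were seen and followed the same course. Their adjusted p was 0.0287 and 0.00313, and that of TRIM59 reached 0.19 without 16-cell A or C or morula A or B.

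Histone messages fell as well: 5 of 17 genes on the histone list, and 0 rose (29.4% against 4.66%, median -0.83). The count was 9 without morula C, 8 with median-ratio scaling and 1 to 3 without morula A, morula B or 16-cell C. HIST1H1A, a linker histone, had 3.29, 3.50 and 80.2 RPKM in morulae, against 78.4, 56.1 and 150 RPKM in 16-cell embryos (-2.92, adjusted p = 0.00797, and up to 0.0663 without morula A or B). HIST2H2AC, a core histone of the H2A family, had 25.1, 14.9 and 64.0 RPKM, against 112, 105 and 93.4 RPKM (-1.80, adjusted p = 0.0145, and up to 0.0962 without 16-cell A, morula A or morula B). HIST1H1C had 1.89, 1.01 and 3.71 RPKM, against 4.55, 11.9 and 6.04 RPKM (-1.40, adjusted p = 0.007). For HIST2H2AC and HIST1H1C morula C was below all 16-cell libraries, which for HIST2H2AC follows from its choice as a largest fall. HIST1H1A did not show this. The other 2 were HIST1H1D and H2AFX (adjusted p = 0.0401 and 0.047), named after their values were seen because so few fell, and lost without 16-cell C, morula A or morula B (up to 0.297). H2AFZ, a replacement variant found at promoters, had 287, 401 and 629 RPKM in morulae, against 1277, 729 and 435 RPKM in 16-cell embryos and was not called (adjusted p = 0.28), except with quantile normalization (-1.39, adjusted p = 0.0459). HIST1H2BA, outside the list, fell among the 12 largest falls (2.19, 6.52 and 12.01 RPKM, against 19.8, 22.5 and 58.2 RPKM, adjusted p = 0.00392). Histone genes are near-identical, and their values are uncertain for the same reason as those of ribosomal proteins.

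Another kind of fall concerned messages that were low in 8-cell embryos, high at the 16-cell stage and low again in morulae. RBM3, an RNA-binding protein induced by cold, averaged 6.15 RPKM in 8-cell embryos. It had 20.9, 5.11 and 7.51 RPKM in morulae, against 350, 131 and 29.4 RPKM in 16-cell embryos (-3.42, SE 0.63, adjusted p = 0.000931). Its 16-cell libraries spread widely. PCDH8 (chromosome 12, 75608669 to 75614327), a protocadherin of the cell surface, had 0.180, 5.29 and 2.76 RPKM, against 26.5, 23.5 and 11.6 RPKM (-2.75, adjusted p = 8.56e-05), after 0.596 RPKM at the 8-cell stage. TUBA4A had 0.151, 2.05 and 2.27 RPKM, against 20.4, 8.88 and 5.03 RPKM (-2.26, adjusted p = 0.000179). These genes were picked as largest falls without overlap, so it follows from that choice that every morula, morula C included, lay below the 16-cell libraries. Their calls held without any 1 of the 6 libraries. With only the 6 libraries of both stages fitted, adjusted p was 0.0541 for RBM3, 0.0427 for PCDH8 and 0.0521 for TUBA4A. NUFIP2, an RNA-binding protein, had 1.95, 0.903 and 4.50 RPKM in morulae, against 27.0, 15.0 and 5.63 RPKM in 16-cell embryos (-2.19, adjusted p = 0.000923). TSPAN31, a tetraspanin, had 1.57, 4.00 and 1.73 RPKM, against 13.96, 12.6 and 4.27 RPKM (-1.65, adjusted p = 0.000945). By the same choice the stages did not overlap in these 2 genes, although morula C of NUFIP2 came close to 16-cell C. BTG2, an antiproliferative partner of CCR4-NOT, had 1.65, 2.91 and 5.24 RPKM in morulae, against 21.3, 7.88 and 9.88 RPKM in 16-cell embryos (-1.69, adjusted p = 0.00724, and up to 0.0538 without 16-cell A or morula A), after 3.15 RPKM at the 8-cell stage. CCDC174 had 3.05, 2.499 and 10.9 RPKM, against 21.1, 14.7 and 12.04 RPKM (-1.58, adjusted p = 0.00497), after 3.37 RPKM. The homeobox genes HHEX (0.450, 2.39 and 1.56 RPKM, against 7.21, 5.26 and 6.47 RPKM, adjusted p = 4.97e-05) and IRX5 (0.0603, 1.28 and 0.381 RPKM, against 4.36, 3.24 and 1.67 RPKM, adjusted p = 0.000278), chosen after their values were seen, had this shape too. KLF17, a zinc-finger factor of early embryos, had 14.7, 17.2 and 54.9 RPKM in morulae, against 73.0, 82.1 and 22.4 RPKM in 16-cell embryos. It was not called (-1.06, adjusted p = 0.109), and the adjusted p was 0.00722 without morula C, 0.0257 with quantile normalization and 0.0491 with median-ratio scaling. In morulae library C was the highest and in 16-cell embryos it was the lowest.

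Other falls were of messages that were higher still in 8-cell embryos. CIART (chromosome 3, 99810475 to 99814094), a repressor of the circadian clock, averaged 92.5 RPKM in 8-cell embryos and had 1.45, 7.90 and 31.1 RPKM in morulae, against 73.2, 51.1 and 34.1 RPKM in 16-cell embryos (-2.53, adjusted p = 0.00426). IFIT5, an interferon-induced RNA-binding protein, averaged 128 RPKM at the 8-cell stage and had no read in morula A and 1.22 and 18.8 RPKM in morula B and C, against 37.7, 23.0 and 69.1 RPKM in 16-cell embryos (-3.51, adjusted p = 0.0149). That call was lost without 16-cell C, morula A or morula B (up to 0.102). Morula C was the highest morula in both genes and came closest to the 16-cell libraries. The signalling and transcription factor genes HBEGF (-1.25, adjusted p = 0.0353) and HEY1 (-1.32, adjusted p = 0.0381), chosen after their values were seen, had averaged 17.4 and 11.02 RPKM at the 8-cell stage and fell too, but not without 16-cell C, morula A or morula B (up to 0.248), nor for HEY1 without 16-cell A.

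**Figure D4:**
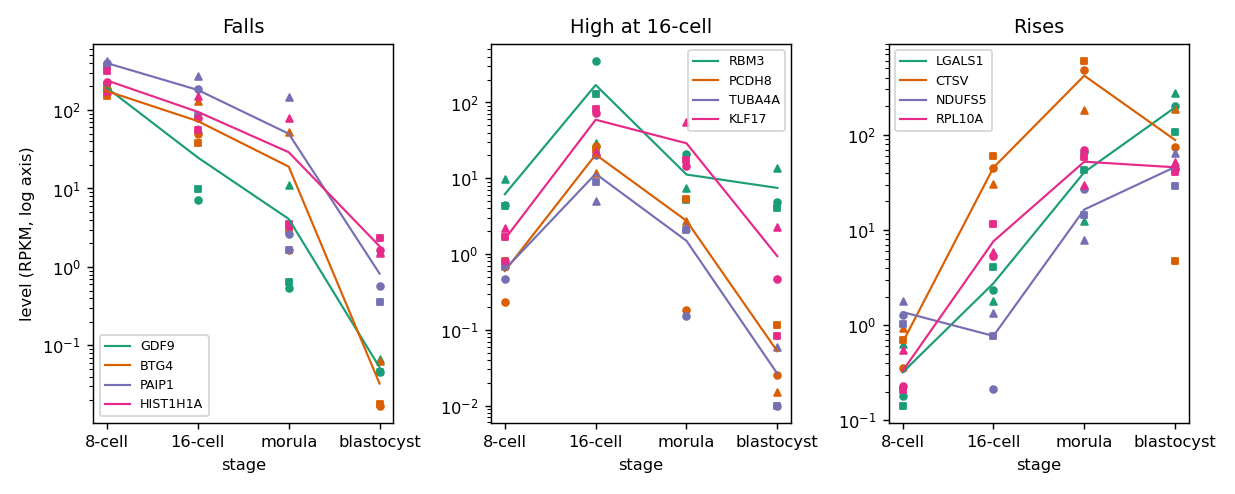
Level (RPKM, log axis) of 12 genes at the 8-cell, 16-cell, morula and blastocyst stages, with lines through the stage means and symbols for libraries A (circle), B (square) and C (triangle). GDF9, BTG4, PAIP1 and HIST1H1A come down from the 8-cell stage, and RBM3, PCDH8, TUBA4A and KLF17 are highest at the 16-cell stage. LGALS1, CTSV, NDUFS5 and RPL10A are higher in every morula than in any 16-cell library, which follows from their choice as largest rises. KLF17 was not called.

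Few genes of compaction reached 1 RPKM, a scale that divides by the whole span. On RPKM limma called 0 of 3 adherens junction genes, 0 of 6 polarity genes and 0 of 4 Hippo genes, with 1 on each list at an unadjusted p below 0.05. In the other lists 1 of 6 tight and gap junction genes rose and 1 fell, and 1 of 11 actomyosin genes (ACTG1) rose. Over all genes tested 11.4% rose and 4.66% fell. The gap junction gene GJB5 rose (2.83, 2.70 and 1.75 RPKM in morulae, against no read, 0.561 and 0.180 RPKM in 16-cell embryos, adjusted p = 0.0333) and GJC1, another connexin gene, fell (0.864, 1.23 and 7.84 RPKM, against 6.11, 5.31 and 9.91 RPKM, adjusted p = 0.0372). Both calls were lost without 16-cell A, 16-cell C, morula A or morula B (up to 0.235). CDH1 itself, encoding E-cadherin, was too low in RPKM to be tested and had 421, 31 and 209 reads in morula A, B and C, against 50, 56 and 167 reads in 16-cell A, B and C. This made 7.53, 1.29 and 3.37 RPM in morulae, against 0.977, 1.41 and 3.89 in 16-cell embryos (adjusted p = 0.375).

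In RPM more of these genes could be tested; leaving out libraries on this scale was added after seeing the data. Among 16 adherens junction and desmosome genes 3 rose and 2 fell, among 15 tight and gap junction genes 3 rose and 1 fell, among 17 polarity genes 2 rose, among 21 Hippo genes 2 rose and 3 fell, and among 24 actomyosin genes 3 rose and 1 fell, against 9.44% higher and 7.59% lower over the 10384 genes tested on this scale. Leaving out morula C, where 1379 genes (13.3%) were higher and 2041 (19.7%) lower on this scale, mainly added falls: 3 rose and 3 fell in the adherens list, 3 and 5 in the tight and gap junction list, 2 and 3 in the polarity list, 3 and 6 in the Hippo list, and 4 and 3 in the actomyosin list. The falls added were led by EZR, at 10.5, 3.92 and 118 RPM in morulae, against 40.01, 45.8 and 128 RPM in 16-cell embryos (-3.07, adjusted p = 4.86e-05 without morula C, and 0.091 with it). Leaving out 16-cell A or C, morula A or morula B took the rises of the tight and gap junction list to 0 or 1, and leaving out 16-cell A or morula A took those of the polarity list to 0. The medians of these lists ran from -0.12 to 0.03 log2 units. AFDN, the afadin that ties nectins to actin, had 33.1, 10.6 and 5.51 RPM in morulae, against 0.723, 2.57 and 1.37 in 16-cell embryos (2.49, SE 0.45, adjusted p = 0.000683). PKP2, a plakophilin of desmosomes, had 9.60, 3.87 and 1.59 RPM, against 0.410, 0.453 and 0.861 (1.71, adjusted p = 0.00887, and 0.0853 without morula A). For both, every morula was above every 16-cell library, and morula A was highest. DSC3, a desmosomal cadherin, went the other way with 0.446, 2.67 and 0.867 RPM in morulae, against 23.8, 8.50 and 11.2 in 16-cell embryos (-2.73, SE 0.30, adjusted p = 5.09e-06), after 0.140 in 8-cell embryos. NECTIN3 also fell (13.9, 23.9 and 36.2 RPM, against 124, 59.8 and 45.6, adjusted p = 0.0107, lost without 16-cell A or morula A with up to 0.0876). Tight junction scaffold TJP1 rose (19.1, 38.2 and 22.1 RPM, against 7.95, 14.3 and 10.4, adjusted p = 0.0259), as did the junctional adhesion gene F11R (79.4, 57.0 and 19.4, against 16.1, 20.9 and 14.6, adjusted p = 0.0292) and the surface adhesion gene EPCAM (19.2, 7.04 and 4.18, against 1.99, 2.36 and 2.91, adjusted p = 0.0416). The calls of TJP1, F11R and EPCAM were lost without 16-cell A, 16-cell C or morula B, those of F11R and EPCAM also without morula A, and that of EPCAM without 16-cell B (up to 0.136, 0.196 and 0.273).

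PARD3, a scaffold of the PAR polarity complex, rose on the same scale (21.5, 13.7 and 10.3 RPM in morulae, against 1.66, 8.82 and 3.40 in 16-cell embryos, adjusted p = 0.00718), though not without 16-cell A or morula A (up to 0.0553). In the Hippo pathway TEAD4, the DNA-binding partner of YAP, had 2.92, 2.87 and 0.835 RPM in morulae, against 0.0586, 0.578 and 0 in 16-cell embryos (1.35, SE 0.24, adjusted p = 0.00063), and none in 8-cell embryos. Other members fell. MOB1A, the cofactor of the LATS kinases, had 2.18, 1.54 and 4.64 RPM, against 15.2, 9.63 and 7.30 (-1.66, adjusted p = 0.00259), and SAV1, the partner of the MST kinases, had 4.66, 3.58 and 3.21, against 10.02, 7.79 and 15.7 (-1.30, adjusted p = 0.00783). Stages did not overlap in TEAD4, MOB1A or SAV1, and the calls held without any 1 of the 6 libraries. AMOTL2, an angiomotin, had 19.2, 8.79 and 0 RPM in morulae, against 0.195, 0.956 and 0.419 in 16-cell embryos (1.97, adjusted p = 0.03). Its absence from morula C makes the stages overlap, and the call was lost without 16-cell A, 16-cell C, morula A or morula B (up to 0.211). YAP1 itself was not called (1.46, 0.250 and 6.23 RPM, against 1.80, 2.49 and 3.42, adjusted p = 0.643). MYH10, a non-muscle myosin II heavy chain, fell (1.07, 0.791 and 4.46 RPM in morulae, against 24.7, 6.92 and 20.4 in 16-cell embryos, -2.58, adjusted p = 0.000693), below every 16-cell library in all morulae. The remaining calls of these lists on RPM were RAC1, CAPZA2 and WDR1, which rose (adjusted p = 0.0286, 0.0421 and 0.0421), and the kinase gene TAOK3, which fell (adjusted p = 0.0493), and all 4 were lost without morula A. RAC1 was also lost without 16-cell A or morula C, CAPZA2 without 16-cell A, 16-cell B or morula B, WDR1 without 16-cell A or morula B, and TAOK3 without 16-cell B, 16-cell C or morula B (up to 0.32).

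Factors that mark the later lineages were not called on RPKM. In limma 0 of 6 trophectoderm, 9 pluripotency, 2 primitive endoderm and 3 ion and water transport genes passed, and 2, 3, 0 and 0 of them had an unadjusted p below 0.05. KLF4, a pluripotency factor, had 44.6, 52.4 and 36.2 RPKM in morulae, against 50.8, 57.4 and 23.2 RPKM in 16-cell embryos (adjusted p = 0.873). POU5F1 had 1.67, 0.601 and 0.446 RPKM, against 0.112, 0.249 and 0.542 RPKM (0.51, adjusted p = 0.0771), and TFAP2C, a trophectoderm factor, had 1.07, 0.832 and 1.52 RPKM, against 1.67, 1.79 and 0.9001 RPKM (adjusted p = 0.392). The stages overlapped in all 3 genes. KRT8, a keratin of the trophectoderm, had 1.36, 1.22 and 1.98 RPKM in morulae, against 2.13, 5.56 and 0.703 RPKM in 16-cell embryos (adjusted p = 0.408), and averaged 114 RPKM in blastocysts. CDX2 had at most 0.0199 RPKM in any of the 6 libraries. SOX2, which was below the filter, had 3.36, 1.44 and 0.694 RPKM in morulae, against 0.801, 0.663 and 0.421 RPKM in 16-cell embryos, and NANOG had 0.258, 0.887 and 0.616 RPKM, against 0.958, 0.753 and 0.910 RPKM. Other genes followed for their part in the blastocyst were not called either. KLF5 stood at 8.49, 5.27 and 0.874 RPKM in morulae, against 2.58, 2.09 and 2.13 RPKM in 16-cell embryos (0.56, adjusted p = 0.278, and 0.000306 without morula C), and the claudin gene CLDN6 at 14.8, 6.20 and 3.46 RPKM, against 1.95, 3.67 and 1.72 RPKM (1.25, adjusted p = 0.191). S100A10 (15.7, 41.1 and 41.6 RPKM, against 100.3, 49.9 and 25.8 RPKM), the membrane linker EZR, the sodium pump subunit ATP1B1 and the beta-catenin gene CTNNB1 had adjusted p of 0.261, 0.313, 0.541 and 0.645. EZR was called lower without morula C (-1.07, adjusted p = 0.00991), and S100A10 with quantile normalization (-1.04, adjusted p = 0.0335) and without both libraries C (-1.44, adjusted p = 0.0355). KLF5 was above every 16-cell library in morula A and B and below all of them in morula C. Below the filter on low values lay GATA3, GATA6, AQP3, CLDN4, OCLN, PARD6B, PRKCZ and DNMT3B, each under 1 RPKM in all 6 libraries. On RPM, ESRRB, an orphan nuclear receptor on the trophectoderm list, rose (24.4, 13.7 and 3.98 in morulae, against 2.13, 6.06 and 0.582 in 16-cell embryos, 1.91, adjusted p = 0.00487), from 0.0600 in 8-cell embryos. With TEAD4 it made 2 of 18 trophectoderm genes called on that scale, where limma called 0 of 13 pluripotency, 11 primitive endoderm and 8 transport genes, of which 4, 3 and 1 had an unadjusted p below 0.05. Without morula C, 3 trophectoderm, 1 pluripotency, 2 primitive endoderm and 0 transport genes rose on RPM, and 3, 2, 3 and 2 fell. Over all genes tested on RPM, 9.44% were higher and 7.59% lower. Without morula C these shares were 13.3% and 19.7%.

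**Figure D5:**
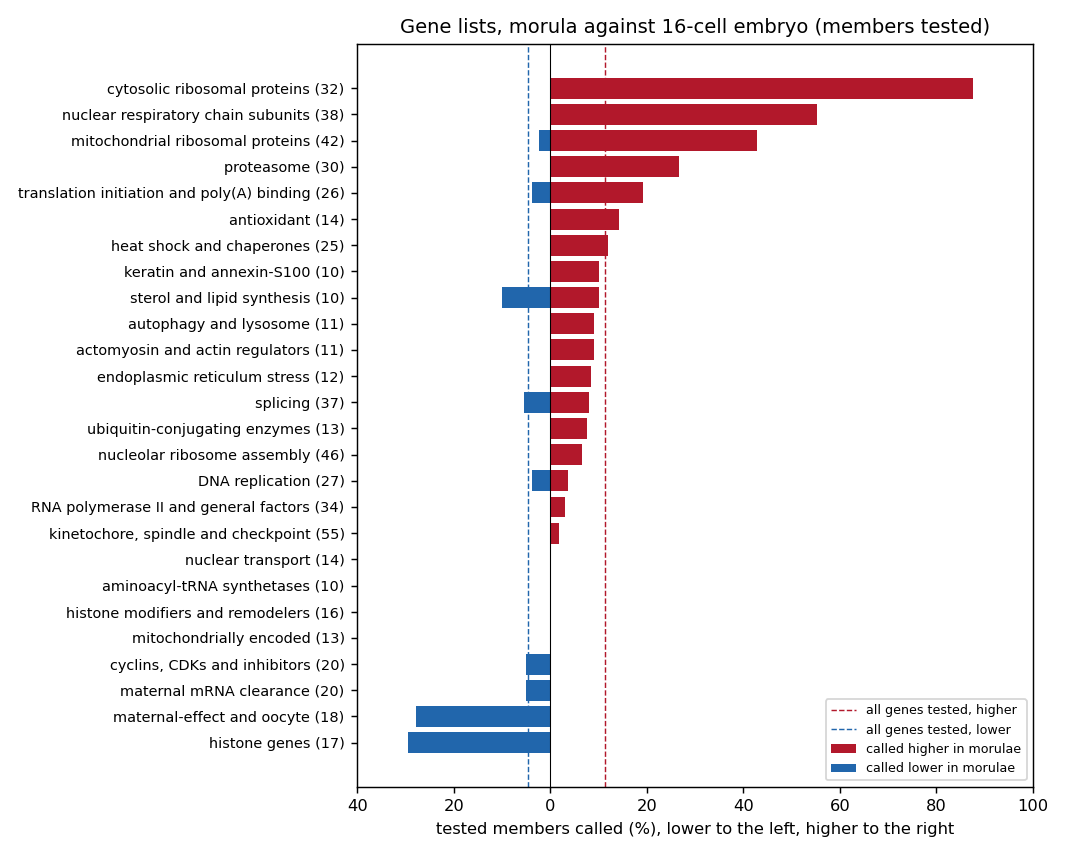
Percent of tested members called higher (red, to the right) and lower (blue, to the left) in morulae for each list with at least 10 members tested (number in brackets), with dashed lines at 11.4% and 4.66% for all genes tested. Cytosolic ribosomal proteins, nuclear respiratory chain subunits and mitochondrial ribosomal proteins have the highest shares called higher, and the maternal-effect and oocyte list and the histone list the highest shares called lower.

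Genes of the cell cycle and of RNA synthesis showed single changes, against 11.4% higher and 4.66% lower over all genes tested. The share lower was 5% for cyclin, CDK and inhibitor genes, near that over all genes. The share higher was 1.82% for kinetochore, 3.70% for replication and 2.94% for polymerase II genes, below that over all genes. Of 20 cyclin, CDK and inhibitor genes 1 fell, CDKN1C, which encodes a CDK inhibitor imprinted in several mammals, with 0.0789, 0.0770 and 7.44 RPKM in morulae, against 10.9, 7.78 and 8.80 RPKM in 16-cell embryos (-2.23, adjusted p = 0.00561). Morula C was nearly at the 16-cell level, but below it. Without morula C 3 genes of this list fell, against 10.5% lower over all genes tested. In DNA replication 1 then rose and 3 fell. Of 55 kinetochore, spindle and checkpoint genes 1 rose, the kinetochore gene SPC24 (2.56, 3.23 and 0.815 RPKM, against 0.507, 0.378 and 0.491 RPKM, adjusted p = 0.0129, lost without morula A or B with up to 0.0841); without morula C 3 rose and 6 fell, and with median-ratio scaling 0 and 6. In DNA replication 1 of 27 rose, the clamp loader gene RFC3 (3.45, 3.94 and 2.83 RPKM, against 0.528, 0.984 and 0.695 RPKM, adjusted p = 0.00189), and 1 fell, the polymerase epsilon gene POLE2 (0.784, 1.67 and 2.54 RPKM, against 4.77, 2.79 and 10.6 RPKM, adjusted p = 0.0106, lost without 16-cell C or morula A). Among 34 RNA polymerase II and general factor genes, POLR2G alone rose (175, 91.8 and 29.6 RPKM, against 8.78, 24.2 and 16.0 RPKM, 2.30, adjusted p = 0.00862, lost without 16-cell A or morula A). Of 37 splicing genes 3 rose and 2 fell, near the shares over all genes tested (8.11% against 11.4% and 5.41% against 4.66%), and with either scaling 1 rose and 3 fell. LSM3 (13.2, 9.91 and 4.81 RPKM, against 1.53, 1.56 and 1.85 RPKM, adjusted p = 0.00117) held without any 1 of the 6 libraries, whereas the others did not. SRSF7 and LSM5 rose (adjusted p = 0.0351 and 0.0382) but not without 16-cell A, 16-cell C, morula A or morula B, nor LSM5 without 16-cell B (up to 0.166 and 0.173). The splicing regulator SRSF1 (1.66, 1.26 and 4.50 RPKM, against 20.04, 7.76 and 5.59 RPKM, adjusted p = 0.00741) fell, but not without 16-cell A (0.0575), and PRPF38A (adjusted p = 0.0225) fell, but not without 16-cell A, morula A or morula B (up to 0.122).

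Metabolic and signalling lists had few calls, against 11.4% higher and 4.66% lower over all genes tested. In sterol and lipid synthesis 1 of 10 genes rose, MSMO1, a demethylase late in cholesterol synthesis (34.5, 53.6 and 36.8 RPKM in morulae, against 11.6, 18.1 and 12.4 RPKM in 16-cell embryos, 1.502, adjusted p = 0.00242). HMGCS1, which acts early in the same route, fell (0.297, 0.122 and 8.46 RPKM, against 7.09, 5.74 and 19.2 RPKM, -2.11, adjusted p = 0.0132), a call lost without 16-cell C, morula A or morula B (up to 0.0929). ID3, an inhibitor of helix-loop-helix factors and a target of BMP signals, fell (0.774, 2.55 and 2.82 RPKM, against 7.56, 9.99 and 5.54 RPKM, adjusted p = 0.00744, and 0.0604 without morula A), 1 of 6 genes of the FGF, IGF and TGF-beta list. BMP4 did not (3.33, 5.76 and 9.37 RPKM, against 8.94, 5.70 and 5.82 RPKM, adjusted p = 0.608). The casein kinase gene CSNK1A1 was 1 of 6 WNT pathway genes called (1.01), and dropped below the fold threshold without 16-cell A, 16-cell C, morula A or morula B. DERL2, of the degradation route for misfolded proteins of the endoplasmic reticulum (1.02), and UBA2, of the SUMO-activating enzyme (1.04), were likewise just above the threshold and 1 of 12 and 1 of 13 on their lists. DERL2 dropped below it without 16-cell B or morula B, and UBA2 without 16-cell A, 16-cell C or morula B. On the list of UBA2, 3 genes fell without morula C. In limma 0 were called of 16 histone modifier, 14 nuclear transport, 7 DNA methylation, 6 apoptosis, 4 glycolysis and 3 amino acid transporter genes, of which 3, 5, 2, 1, 2 and 2 had an unadjusted p below 0.05. Without morula C 2 histone modifier genes and 1 nuclear transport gene rose. On that setting 3 nuclear transport genes fell, as did 1 gene each of DNA methylation, apoptosis and amino acid transport. DNMT1, the maintenance methyltransferase, had 0.230, 0.199 and 3.37 RPKM in morulae, against 1.40, 1.92 and 5.70 RPKM in 16-cell embryos (-0.95, adjusted p = 0.18, and 0.0149 without morula C).

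The genes called at this step also differed between 8-cell embryos and blastocysts, a comparison of the same fit that shares no library with it. RPKM are scaled by library size. Mitochondrial reads made up 30.8 to 45.8% of gene reads in blastocysts, against 2.10 to 4.72% in 8-cell libraries. What part this had in the levels of blastocysts was not tested. Of the 485 genes higher in morulae, 367 (75.7%) were higher and 9 (1.86%) lower in blastocysts than in 8-cell embryos, against 19.4% and 37.6% of all genes tested. Their median level was 1.34 RPKM in 8-cell embryos, 3.42 in 16-cell embryos, 13.4 in morulae and 11.7 in blastocysts. Of the 198 genes lower in morulae, 129 (65.2%) were lower and 0 higher in blastocysts than in 8-cell embryos. Their median level was 5.27 RPKM in 8-cell embryos, 8.94 in 16-cell embryos, 2.39 in morulae and 0.210 in blastocysts. Genes without a symbol in the table made up 265 (54.6%) of the higher and 81 (40.9%) of the lower genes, against 1487 (35.0%) of the genes tested. Called genes were short, with a median span of 3.20 kb for higher and 3.47 kb for lower genes, against 8.00 kb over the genes tested. From the shortest to the longest quintile of genes by span, 17.8%, 18.1%, 12.6%, 6.82% and 1.65% were called higher. On RPM the shares were 17%, 11.9%, 8.72%, 6.596% and 2.94%, so rises were more frequent among short genes on both scales. The share called lower on RPM was 6.11% in the shortest and 9.05% in the longest quintile, against 6.92% and 1.29% on RPKM.

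Among markers of cells that flushed embryos could carry, those of blood, leukocytes and endothelium were low. DCN, TNFAIP6 and TFF3 passed 1 RPKM in some of the 6 libraries. Blood and leukocyte markers (7 found) had at most 0.267 RPKM in any of the 6 libraries. Stromal and endothelial markers (6 found) summed to 0.0341, 0.253 and 1.94 RPKM in morulae, against 2.28, 1.32 and 3.34 RPKM in 16-cell embryos. In morula B nearly all of this was COL1A2, at 0.242 RPKM. The endothelial genes PECAM1 and VWF had at most 0.0130 RPKM, where 0.01 is the offset of the table. DCN was at 1.62 to 4.07 RPKM in all oocyte to 8-cell libraries. In RPM DCN, LUM and COL1A2 fell (adjusted p = 0.0149, 0.0114 and 0.0254), but not without morula A, nor DCN without 16-cell C or morula B, LUM without morula B, or COL1A2 without 16-cell A or C (up to 0.238). Cumulus and granulosa markers (6 found) summed to 0.0246, 0.0458 and 1.78 RPKM in morulae, against 1.85, 0.749 and 0.892 RPKM in 16-cell embryos, nearly all of it TNFAIP6, while FSHR and CYP19A1 were at or near 0. Oviduct and uterine epithelium markers (4 found) summed to 4.02, 1.09 and 4.39 RPKM in morulae, against 4.43, 1.89 and 0.887 RPKM in 16-cell embryos, all but a trace from TFF3. The stromal and cumulus sums were higher in morula C than in morula A and B, the order also seen for oocyte messages, and their part in the results was not tested.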

How the data were processed

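Total RNA of goat oocytes and embryos was sequenced in 21 libraries, 3 for each of 7 stages. The authors deposited 1 table of RPKM values with a column per library. Per the submitters' processing notes, the tools were Partek, STAR 2.5.3a and FastQC. Not given in the sources used here are the build, the strandedness and how reads were counted, so reads of overlapping or near-identical genes may be shared. After removal of an offset of 0.01, 95.1 to 96.2% of the low values in the 6 libraries were whole multiples, within 0.05, of what 1 read is worth over the gene's whole span, which gives the depths and RPM (reads scaled by the implied library total alone). For a gene of 10 kb, 3 reads amount to 0.00483 to 0.0125 RPKM in these libraries. This floor covers counting error only.

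The test was limma 3.58.1 in R 4.3.3, with trend and robust settings, applied to log2(RPKM + 1) in 1 model of all 7 stages and 21 libraries, with two-sided p-values under Benjamini-Hochberg adjustment over 4253 genes; the script was tested on simulated data. Tables were made with Python 3.11.15, numpy 2.4.6 and pandas 2.3.3 and figures with matplotlib 3.10.9. Alternatives were other pseudocounts, filters, scalings and weights, the letter as a block, and libraries left out. Leaving out libraries on RPM was added after seeing the data.

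The comparison, 46 gene lists (1354 of 1762 symbols found) and named genes were chosen with earlier results of these data known. Named are up to 12 rises and 12 falls of the largest fold among called genes with a symbol, at least 10 RPKM and no overlap, up to 3 of each in every list with calls, up to 4 of each in the highest decile, and a fixed set. Another 16 were chosen after their values were seen. Members of that set with no row were not analysed here, and a few items are not reported here.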

Additional observations from a re-analysis of the deposited data

How the results depend on the processing

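Against 485 genes higher in morulae, 252 were called with a pseudocount of 5, 166 with only the 6 libraries and 980 in RPM; leaving out 1 library gave 307 to 626. Against 198 lower, the count was 404 with a pseudocount of 0.1, 67 with one of 5, 122 with no filter, 19 with only the 6 libraries, 316 with median-ratio scaling, 788 in RPM, 344 with array weights, 410 without both libraries C and 78 to 448 with 1 library left out. In RPM, leaving out 1 library gave 560 (without morula A) to 1379 higher, 598 without 16-cell A, and 287 (without morula A) to 2041 (without morula C) lower, 400 without morula B and 511 without 16-cell C. The difference in detected genes, 108, was -213 at 0.1 RPKM and -8.67 to 199 with 1 library left out (-8.67 without morula C). All 6 fits with 1 library left out called 259 of the 485 and 61 of the 198 genes, and no setting called any of them with the other sign. KLF4 had a fold change of 0.10, but -0.34 with quantile normalization, -0.20 with median-ratio scaling, -0.16 without both libraries C and -0.29 to 0.34 with 1 library left out. EIF1AX ranged from -0.25 to 0.38, KRT8 from -0.86 to 0.12 and BMP4 from -0.51 to 0.12 with 1 library left out. The cause of these changes was not tested. The labels state no pairing of letters across stages, and the letters were not taken as pairs. Deviations from the stage mean correlated at -0.14 (A), 0.32 (B) and 0.31 (C) between same-lettered 16-cell and morula libraries. In these deviations 16-cell B and C correlated best with the morula of their own letter, and 16-cell A with morula B (0.12). With the letter as a replicate block 477 genes were higher and 205 lower. Depth limits low genes most in morula B, the shallowest library.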
